A study of Rattus norvegicus with 17 samples.

Results

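The genes described here encode the structural proteins of the hair shaft, namely the trichocyte keratins Krt31 to Krt36 and Krt81 to Krt86 and the keratin-associated proteins, whose symbols begin with Krtap. The rule that picks them reads the gene symbol. Of 30367 probes on the array, 34 belonged to them, and these stood for 25 genes, 10 trichocyte keratins and 15 keratin-associated proteins. RefSeq lists 82 rat genes whose symbols match, so that most of the keratin-associated proteins were not measured here.

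The skin came from male CD hairless rats, a strain without a normal coat, aged 2 to 3 months at the start and housed in pairs. In the exposed group, rats received 94 GHz millimetre waves for 3 h a day on 3 days a week over 5.5 months, and in the sham group they were not exposed. RNA of whole skin explants was hybridised to 1-colour Agilent arrays, 9 labelled exposed and 8 labelled sham. The study's text counts 6 exposed and 8 sham animals, and the labels tie no array to an animal, so some exposed arrays may share one. The p-values therefore measure only the spread between these arrays, and are too small if arrays share animals.

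A hair shaft has a medulla, a cortex and an overlapping outer cuticle, all made by matrix cells in the bulb of a growing follicle. Acidic and basic trichocyte keratins pair into filaments, and keratin-associated proteins, rich in cysteine or in glycine and tyrosine, form the matrix that cross-links them. The genes are switched on in sequence as cells leave the bulb, and are silent in a resting follicle, so in whole skin their RNA depends on how many follicles are growing. In bulk skin, fewer hair-forming cells and less RNA per cell cannot be told apart.

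Values are log2 of the processed signal minus the 75th percentile of the array, so 0 marks a probe as bright as that percentile, and 1 unit is a doubling of signal. Levels of different probes are not comparable. The 75th percentile ran from 788.3 to 1266.3 signal units over the 17 arrays, 66.7% to 70.8% of probes lay well above background, and no spot was saturated. A probe was kept when it was well above background on at least 8 arrays, as 20709 probes were. Of the hair shaft genes, 24 of 25 were kept through 33 of 34 probes. Krt84, which is known in humans from the tongue rather than from hair, was not well above background on 16 of 17 arrays. It measured -4.44 on exposed replicate 1, the single array on which it was above background. Where several probes of a gene were kept, the brightest on average stands for it.

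Sham replicate 5 and exposed replicate 4 held the lowest value of nearly all kept hair shaft genes. Sham replicate 5 had 14 of the 24 kept hair shaft genes above background and was the lowest of all arrays for 17 of them. Exposed replicate 4 had 20 above background and was the lowest for 6. Sham replicate 4 was the lowest for the remaining gene, Krtap10l1. All 24 were above background on 12 arrays, while exposed replicate 7 and sham replicate 4 had 23 and sham replicate 6 had 21. Results that rest on sham replicate 5 are given with and without it, and the median group difference is also given without exposed replicate 4.

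Promoters of some members are shown because the genes moved together across the arrays, as described further on. RefSeq promoters (build GRCr8, 250 bases before to 50 after the annotated start) were found for 22 of the 24 kept genes. Krt33a and Krt81 were not matched. Capitals mark the TATA box TATAAA, the TCF/LEF cores CTTTGA and CTTTGT, the posterior HOX core CGTAAA and CTTTGAAGA, the HK-1 element first described in sheep wool keratin promoters, which contains CTTTGA. All motifs were searched on both strands, a match on the other strand is shown as its complement read backwards, and positions count the first base of the match from the annotated start. That start need not be where transcription begins, and where it lies downstream the window holds less of the promoter. LEF1 is known to bind the HK-1 element, and HOXC13 is known to bind hair keratin promoters. The promoters printed were chosen by hand, all 3 with the HK-1 element among them, and do not stand for the 22.
Krt85, chr7:134515737-134516036, minus strand: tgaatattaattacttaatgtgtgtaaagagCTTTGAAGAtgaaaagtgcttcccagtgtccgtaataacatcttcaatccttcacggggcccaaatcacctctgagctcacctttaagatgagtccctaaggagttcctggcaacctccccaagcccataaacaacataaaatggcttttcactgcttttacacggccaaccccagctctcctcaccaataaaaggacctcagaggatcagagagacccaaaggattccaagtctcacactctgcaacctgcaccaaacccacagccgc
Krtap7-1, chr11:42227181-42227480, minus strand: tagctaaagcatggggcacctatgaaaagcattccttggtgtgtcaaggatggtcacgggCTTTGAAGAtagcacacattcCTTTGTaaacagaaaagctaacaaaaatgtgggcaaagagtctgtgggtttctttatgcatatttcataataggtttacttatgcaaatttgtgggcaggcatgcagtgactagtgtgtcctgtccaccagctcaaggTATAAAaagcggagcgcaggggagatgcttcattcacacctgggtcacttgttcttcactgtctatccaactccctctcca
Krtap14, chr11:41613669-41613968, minus strand: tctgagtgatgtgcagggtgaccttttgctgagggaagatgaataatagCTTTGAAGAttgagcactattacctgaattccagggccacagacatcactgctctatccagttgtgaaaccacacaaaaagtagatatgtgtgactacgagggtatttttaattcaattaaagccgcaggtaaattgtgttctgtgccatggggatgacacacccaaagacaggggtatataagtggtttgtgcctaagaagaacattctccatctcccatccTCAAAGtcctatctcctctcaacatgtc
Krt34, chr10:85474452-85474751, minus strand: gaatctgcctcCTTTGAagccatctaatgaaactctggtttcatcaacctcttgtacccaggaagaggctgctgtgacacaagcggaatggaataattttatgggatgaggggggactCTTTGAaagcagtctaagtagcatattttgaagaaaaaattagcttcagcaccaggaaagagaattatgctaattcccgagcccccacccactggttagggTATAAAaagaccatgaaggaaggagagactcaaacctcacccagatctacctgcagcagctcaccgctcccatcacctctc
Krt82, chr7:134554038-134554337, minus strand: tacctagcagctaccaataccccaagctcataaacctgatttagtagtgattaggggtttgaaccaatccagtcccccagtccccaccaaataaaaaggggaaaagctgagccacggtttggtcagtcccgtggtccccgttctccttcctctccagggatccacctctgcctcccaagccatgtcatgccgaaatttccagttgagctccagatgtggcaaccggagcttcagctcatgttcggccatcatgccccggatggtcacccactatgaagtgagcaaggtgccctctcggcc
Krtap10-2, chr20:10887947-10888246, plus strand: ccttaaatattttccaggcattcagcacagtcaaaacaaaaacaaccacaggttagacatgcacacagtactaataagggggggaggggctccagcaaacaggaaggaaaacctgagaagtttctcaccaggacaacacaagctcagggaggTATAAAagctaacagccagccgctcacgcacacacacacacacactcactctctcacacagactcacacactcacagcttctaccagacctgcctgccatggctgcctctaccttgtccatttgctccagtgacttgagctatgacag

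The HK-1 element was found in 3 of 22 promoters, or 13.6%, against 0.418% of all 33469 promoters. It begins at -219 in Krt85, a keratin of the matrix and precortex, at -190 in Krtap7-1 and at -201 in Krtap14, each time on the sense strand. TATAAA lay in 14 of 22, or 63.6%, against 14.2% of all promoters. The share with that whole box lying within 45 to 11 bases before the annotated start, on the sense strand, was 31.8% against 1.74%. It can miss boxes of genes whose annotated start lies downstream of where transcription begins. Over the 68 promoters of all genes whose symbols match, measured or not, these shares were 5.88% (4 promoters) for the HK-1 element, 73.5% for TATAAA and 16.2% for the box at that position. CTTTGA was found in 36.4% against 16.1%, CTTTGT in 27.3% against 18.8%, and CGTAAA in 9.09%, or 2 promoters, against 2.95%. Over the same 68 promoters CTTTGA was in 20.6% and CGTAAA in 5.88%, while CTTTGT, in 16.2%, lay below its share of all promoters. Krt34, a cortex keratin, carries CTTTGA at -239 and -132 and a TATA box at -31.

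The Krtap10 genes, which lie together on chromosome 20 and whose human counterparts are made in the hair cuticle, were searched as a group. Of 13 promoters of Krtap10 and Krtap12 genes, measured or not, 0 held the HK-1 element and 7.69% held CTTTGA, while 46.2% held TATAAA. As only 0.418% of all promoters hold the HK-1 element, 0 of 13 cannot be read as a lack of it. Krtap10-2 carries a TATA box at -98 and no other motif searched. In its printed sequence the annotated start falls on an ATG, so -98 need not be the distance to where transcription begins. None of the motifs lay in the window printed for Krt82, a keratin of the cuticle in humans. An ATG precedes its annotated start there, so part of that window may be coding sequence. The promoters of the 6 measured Krtap10 genes were 46.5% to 86.1% identical over a global alignment, with a median of 56.8%, and the closest were those of Krtap10-10l2 and Krtap10l1. Keratin promoters were 46.8% to 57.6% identical to each other, with a median of 50%. The 159 pairs of different kinds were 45.3% to 56.4% identical, with a median of 50.7%, so keratin promoters were no more alike than those. These matches are letters in a window and say nothing about which factor binds there.

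**Figure D1:**
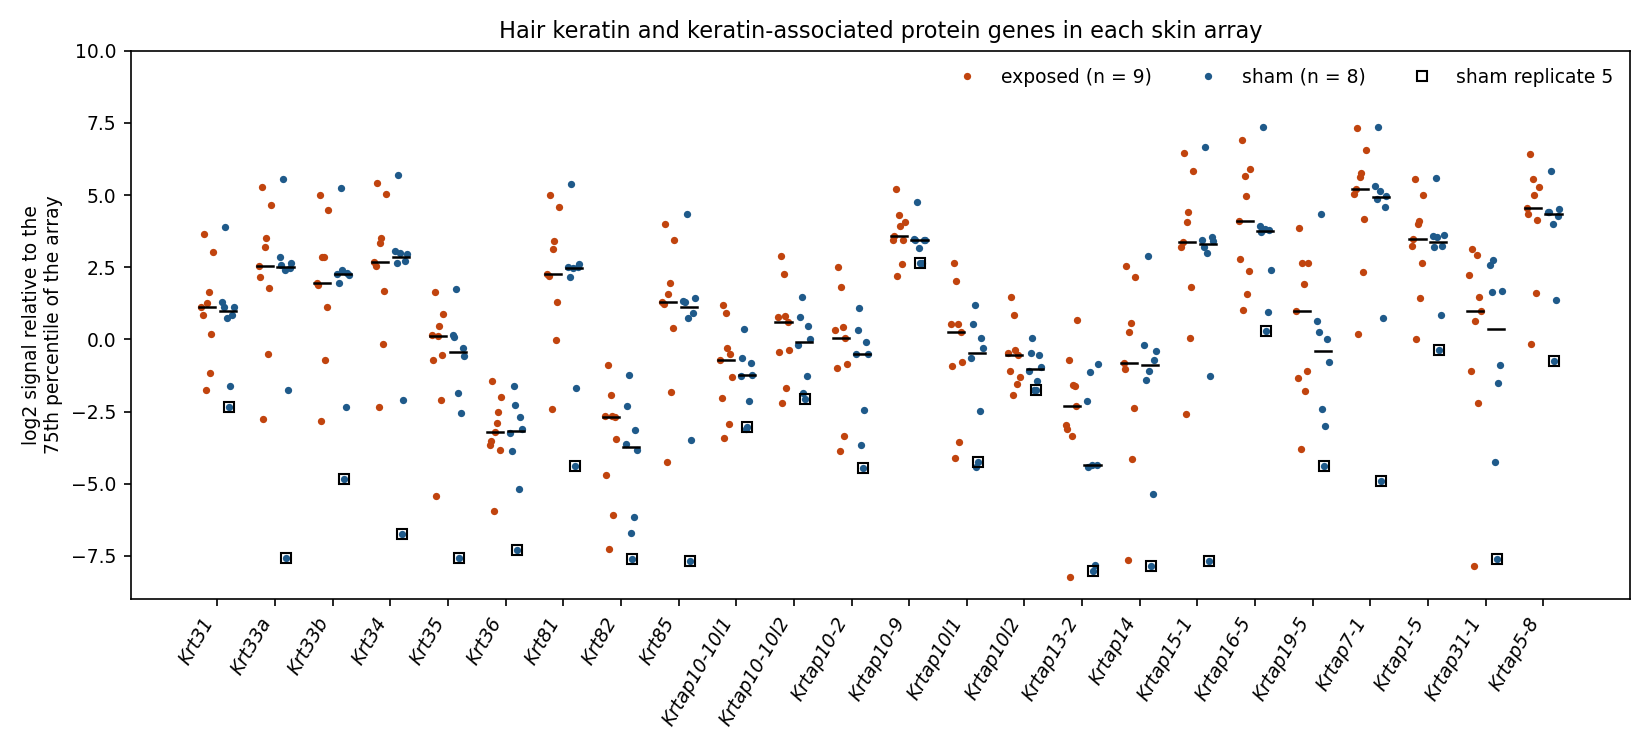
Level of the 24 kept hair shaft genes on each array (log2 signal relative to the 75th percentile of the array), exposed arrays in orange left of sham arrays in blue, with group medians as bars and sham replicate 5 in an open square. The groups overlapped for all 24 genes, and sham replicate 5 was the lowest array for 17 of them.

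The acidic trichocyte keratins, encoded on chromosome 10 (RefSeq, GRCr8), differed widely between arrays of the same group. Krt34 measured -2.33, 2.68 and 5.41 in exposed skin as lowest, median and highest, against -6.75, 2.84 and 5.69 in sham skin. Exposed replicate 4 was the lowest exposed array and sham replicate 5 the lowest sham array, where the probe was no longer above background, and sham replicate 3 was the highest of all. Over the 16 arrays on which it was above background, the signal of Krt34 spanned 261-fold.

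Krt33a, a cortex keratin, measured -2.74, 2.54 and 5.27 in exposed skin and -7.58, 2.52 and 5.57 in sham skin. Krt33b, its close relative, measured -2.83, 1.97 and 5.01 in exposed skin and -4.85, 2.25 and 5.23 in sham skin. Krt31, a keratin of the cortex, measured -1.75, 1.11 and 3.66 in exposed skin and -2.33, 0.98 and 3.88 in sham skin. The order was the same for these 3 genes, with sham replicate 5 lowest, exposed replicate 4 next and sham replicate 3 highest. The groups overlapped, and the sham values reached lower through sham replicate 5. Krt33b and Krt31 stayed above background on all 17 arrays, over which Krt33b spanned 1090-fold and Krt31 spanned 74.2-fold.

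Krt35, which is switched on early, in the matrix and precortex, measured -5.43, 0.13 and 1.65 in exposed skin and -7.56, -0.43 and 1.75 in sham skin. Krt36 measured -5.96, -3.21 and -1.45 in exposed skin and -7.28, -3.18 and -1.62 in sham skin. For both genes the groups overlapped, and sham replicate 5 lay below every exposed array.

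The basic keratins, encoded on chromosome 7, varied in the same manner. Krt85, the early basic keratin whose promoter holds the HK-1 element, measured -4.26, 1.29 and 4.00 in exposed skin and -7.67, 1.11 and 4.33 in sham skin. Krt81, a basic keratin of the cortex, measured -2.42, 2.28 and 5.00 in exposed skin and -4.38, 2.49 and 5.37 in sham skin. Sham replicate 3 was highest and sham replicate 5 lowest for both, and Krt81 spanned 861-fold while above background on all arrays. Krt82 was dimmer, with -7.25, -2.68 and -0.90 in exposed skin and -7.60, -3.71 and -1.22 in sham skin. It was above background on 7 of 9 exposed and 5 of 8 sham arrays, and its highest array was exposed replicate 3.

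Among the keratin-associated proteins on chromosome 11, the signal of Krtap7-1, a glycine-tyrosine rich protein of the cortex, covered the widest range of any member that was above background throughout. It measured 0.20, 5.20 and 7.31 in exposed skin and -4.90, 4.93 and 7.36 in sham skin, a span of 4880-fold. Sham replicate 5 was the lowest sham array and the next one, sham replicate 6, stood at 0.74, while exposed replicate 4 was the lowest exposed array. Krtap15-1 measured -2.60, 3.37 and 6.45 in exposed skin and -7.68, 3.31 and 6.68 in sham skin, with the same arrays at both ends. Its SD of 3.58 over the 17 arrays was the highest of the 24 genes.

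Krtap14 measured -7.65, -0.82 and 2.55 in exposed skin and -7.85, -0.90 and 2.89 in sham skin. Krtap19-5, of a glycine-tyrosine rich family, measured -3.80, 1.00 and 3.87 in exposed skin and -4.38, -0.38 and 4.36 in sham skin. Krtap16-5 measured 1.01, 4.10 and 6.92 in exposed skin and 0.28, 3.75 and 7.37 in sham skin. Each of these had sham replicate 3 as its highest array and sham replicate 5 as its lowest. Krtap13-2 measured -8.24, -2.29 and 0.67 in exposed skin and -8.03, -4.35 and -0.85 in sham skin. It was the only member with its highest value on exposed replicate 9, and it was above background on 8 of 9 exposed and 6 of 8 sham arrays.

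On chromosome 10, next to the acidic keratins, Krtap1-5 of the cortex family measured 0.0011, 3.47 and 5.54 in exposed skin and -0.36, 3.39 and 5.59 in sham skin. Krtap31-1 measured -7.85, 0.99 and 3.14 in exposed skin and -7.59, 0.37 and 2.76 in sham skin. On chromosome 1, Krtap5-8, of an ultrahigh-sulfur family known from the human cuticle, measured -0.16, 4.56 and 6.41 in exposed skin and -0.75, 4.35 and 5.84 in sham skin. The groups overlapped for all 3 genes, and exposed replicate 4 or sham replicate 5 was the lowest array.

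The 6 Krtap10 genes on chromosome 20 had SDs of 0.78 to 2.21 over the 17 arrays, against a median of 2.31 for all 24 genes. Krtap10-2 measured -3.87, 0.05 and 2.52 in exposed skin and -4.44, -0.51 and 1.09 in sham skin. Krtap10l1 measured -4.12, 0.24 and 2.65 in exposed skin and -4.43, -0.48 and 1.18 in sham skin. Exposed replicate 3 was highest for both, and the lowest sham arrays were sham replicates 4 and 5, which lay close together.

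Krtap10-10l2 measured -2.21, 0.59 and 2.89 in exposed skin and -2.07, -0.09 and 1.47 in sham skin. Krtap10-10l1 measured -3.40, -0.72 and 1.18 in exposed skin and -3.09, -1.23 and 0.35 in sham skin. For both, exposed replicate 4 was the lowest array and exposed replicate 3 the highest. Krtap10l2 measured -1.92, -0.53 and 1.48 in exposed skin and -1.75, -1.03 and 0.05 in sham skin. Krtap10-9 measured 2.20, 3.57 and 5.20 in exposed skin and 2.63, 3.45 and 4.77 in sham skin, with the lowest SD of the 24 genes, 0.78. That is from its brightest probe, and its other kept probes had SDs of 1.41 and 0.99. Different probes of the same gene gave different spreads. The 2 probes of Krtap10-2 had SDs of 2.04 and 0.88, and those of Krtap13-2 had SDs of 2.64 and 1.44, while probes of the same gene correlated at 0.86 to 0.99 over the 17 arrays. Whether probes of this family bind RNA of more than 1 of its members was not tested.

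The comparison the series was made for asks whether chronic 94 GHz exposure changes skin expression. Among hair shaft genes, 0 of 24 passed the threshold of 0.05 after adjustment (limma, Benjamini-Hochberg, taken over 20709 probes), and the share of all probes was 0%. The smallest adjusted p of any of the 24 was 0.995. Before adjustment, 0 of 24 had a p under 0.05, where 4.17% of all probes did, 0.715% higher and 3.45% lower in exposed skin. The difference was above 0 for 24 of 24 genes, against 41.2% of all probes. The genes correlated strongly over the arrays, so these 24 signs are not independent of each other.

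The log2 differences, exposed minus sham, ran from 0.26 for Krtap10-9 to 1.55 for Krtap13-2, with a median of 0.72, against a median of -0.02 over all probes. The other kept probes of Krtap10-9 gave 0.60 and 0.44, and the other kept probe of Krtap13-2 gave 0.75. The median was 0.74 for the trichocyte keratins and 0.64 for the keratin-associated proteins. Krtap13-2 had the smallest p, 0.207, with a 95% interval of -0.94 to 4.05 (limma, adjusted p = 0.995). Krtap10l2 was at 0.45 (-0.44 to 1.34), Krtap19-5 at 1.12 (-1.39 to 3.63), Krtap10-10l2 at 0.62 (-0.82 to 2.06), Krtap10l1 at 0.92 (-1.22 to 3.05) and Krtap10-2 at 0.84 (-1.13 to 2.82). The intervals of all 24 genes included 0, and for a keratin such as Krt34, at 1.01 (-2.08 to 4.11), the interval reached well past a doubling in either direction.

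Without sham replicate 5 the sign was no longer shared. The difference was then above 0 for 10 genes and below 0 for 14, against 43.6% of all probes above 0, and the median was -0.05. The trichocyte keratins had a median of -0.11 and the keratin-associated proteins one of 0.21, and the smallest p was 0.399. Of the 24 genes 0 had a p under 0.05 without that array, where 5.6% of all probes did, 1.13% higher and 4.47% lower in exposed skin. Krt34 stood at -0.15 (-2.53 to 2.23), Krt85 at -0.07 and Krtap7-1 at -0.02, whereas the 10 above 0 were Krtap13-2 at 1.00, Krtap19-5 at 0.59, Krt82 at 0.27, Krtap16-5 at 0.21 and the 6 Krtap10 genes at 0.15 to 0.5. The other kept probe of Krtap13-2 stood at 0.54 without sham replicate 5. Without exposed replicate 4, the second array with very low values, the median was 1.29, and Krtap13-2, at 2.26, had an unadjusted p of 0.0395 (limma, adjusted p = 0.981). The share of all probes with an unadjusted p under 0.05 was not counted in that fit. Of all 17 arrays, sham replicate 5 and exposed replicate 4 moved the median most when left out. It was 0.35 without exposed replicate 3 and 1.22 without sham replicate 3, the arrays with the highest values.

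**Figure D2:**
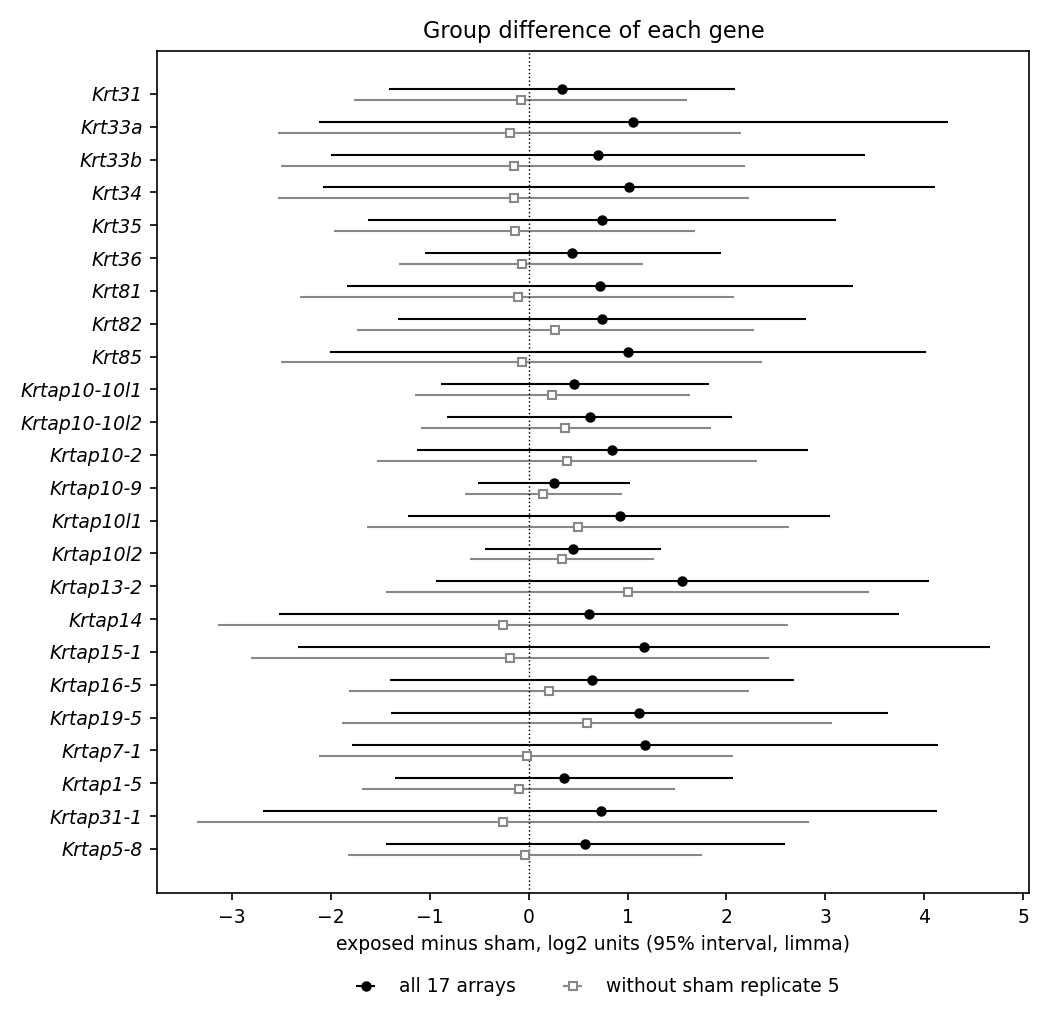
Exposed minus sham difference of each of the 24 genes in log2 units with its 95% interval (limma), with all 17 arrays as black circles and without sham replicate 5 as open grey squares. All intervals include 0, and 14 of 24 differences lie below 0 without that array.

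The titles carry a number in brackets whose first part takes 4 values. It is read here as the slide, which the labels do not state, and each such slide holds exposed and sham arrays together. With slide as a block, the median difference was 0.70. Within slide 1, with 3 exposed and 2 sham arrays, the median difference was 0.73. On slide 2, with 4 exposed and 2 sham arrays, it was -1.8 and 21 of 24 genes were lower in exposed skin. That slide holds both exposed replicate 4 and sham replicate 3, the array with the highest value for 13 of 24 genes. Slide 3 has 1 exposed array against sham replicate 5, with a median of 4.91, and slide 4, with 1 exposed and 3 sham arrays, gave 2.67. The direction therefore did not hold within every slide. Between slides, 0 of 24 genes had an unadjusted p under 0.05 (limma, smallest p 0.0881), where 8.92% of all probes did.

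The hair shaft genes were among the most variable genes of these explants. Their SD over the 17 arrays ran from 0.78 to 3.58 log2 units with a median of 2.31, against a median of 0.18 for all 11161 named genes with a value on every array. All 24 lay above the 95th percentile of those SDs, 0.61, and 19 lay above the 99th percentile, 1.6. Of the 100 most variable named genes, 19 were hair shaft genes. Without sham replicate 5 the median SD was 2.00, so the spread does not rest on that array.

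A summed level, the mean over the 24 genes of the value minus the gene's own mean, shows which explants were high and low. Its mean was 0.36 ± 2.02 (SD, n = 9) over the exposed arrays and -0.40 ± 2.41 (SD, n = 8) over the sham arrays. Leaving out sham replicate 5 gave 0.27 ± 1.61 (SD, n = 7) for sham. In exposed skin it was 3.05 on replicate 3, 1.82 on replicate 9, 1.5 on replicate 5, 1.39 on replicate 6, 0.73 on replicate 1, 0.07 on replicate 8, 0.04 on replicate 2, -1.66 on replicate 7 and -3.71 on replicate 4. In sham skin it was 2.83 on replicate 3, 0.67 on replicate 1, 0.56 on replicate 2, 0.54 on replicate 8, 0.41 on replicate 7, -0.63 on replicate 4, -2.53 on replicate 6 and -5.08 on replicate 5. Each group thus held 1 explant near 3, a middle set and 2 explants below -1.5.

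**Figure D3:**
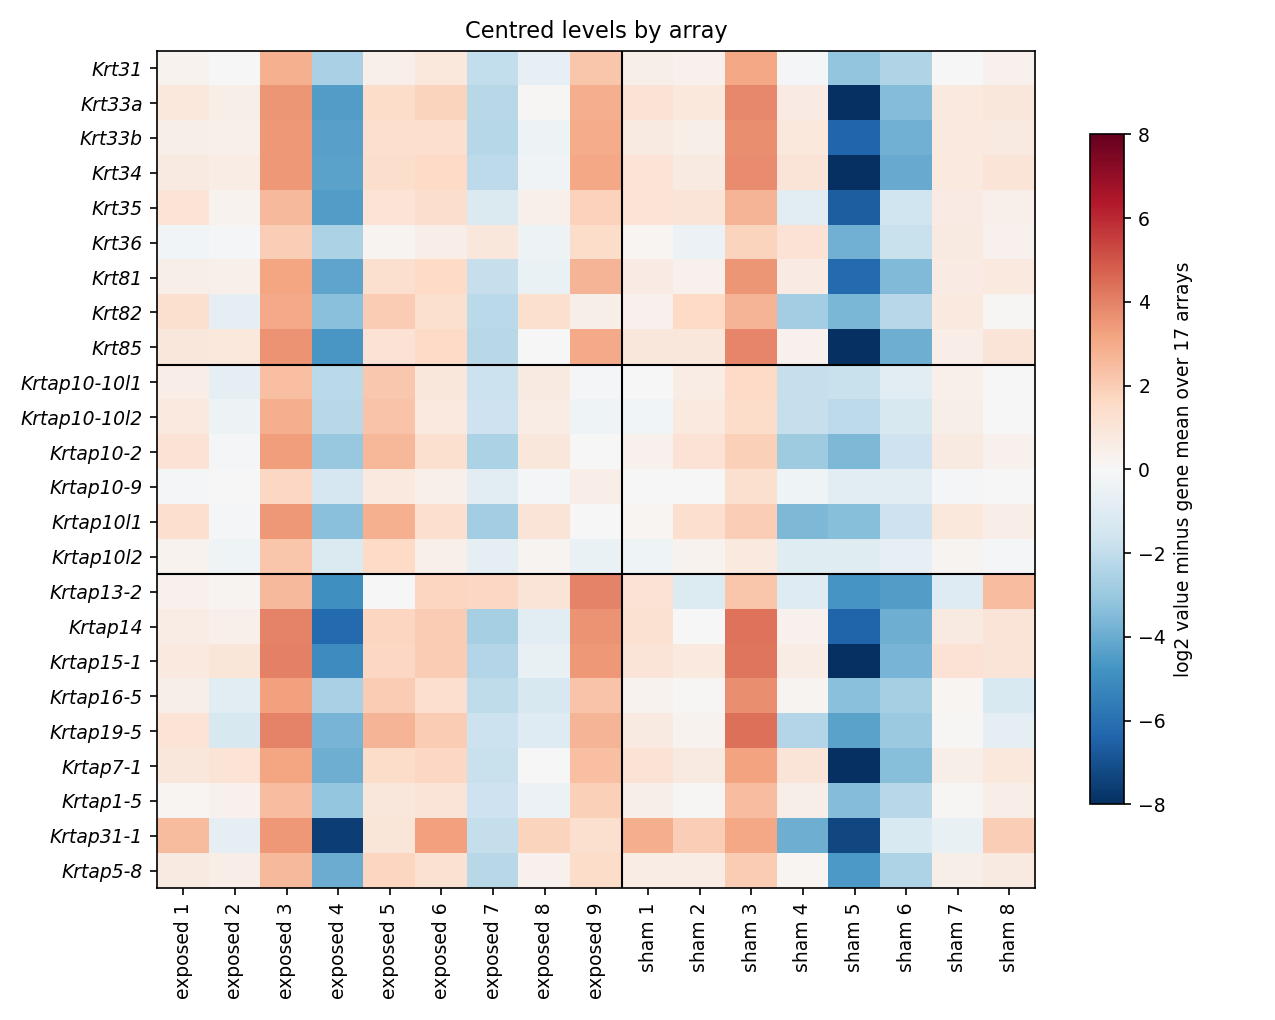
Level relative to each gene's own mean, in log2 units, of the 24 hair shaft genes (keratins, then the Krtap10 genes of chromosome 20, then the other Krtap genes), with the 9 exposed arrays left of the 8 sham arrays. Exposed replicate 3 and sham replicate 3 are high and exposed replicate 4 and sham replicate 5 are low for nearly all genes, and the colour scale ends at 8 units either way.

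The members rose and fell together. Over the 17 arrays, which share a scaling and a tissue, all 276 pairs of genes had a positive Pearson correlation. The trichocyte keratins correlated with each other at 0.64 to 1.00, with a median of 0.94 over 36 pairs (0.92 without sham replicate 5).

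The Krtap10 genes formed a second pattern. They correlated with each other at 0.85 to 1.00, with a median of 0.95 over 15 pairs, but with the keratins at a median of 0.76 over 54 pairs (0.73 without sham replicate 5). Read from its brightest probe, Krtap10-9 stood between the patterns. It lay at 0.85 to 0.88 with the other 5 Krtap10 genes, at 0.93 with Krt31, Krtap16-5 and Krtap19-5, and at 0.70 with Krtap13-2. On exposed replicate 9 that probe measured 4.07, above its exposed median of 3.57. The other kept probes of Krtap10-9 measured -0.85 and -4.13 there, below their exposed medians of 0.07 and -3.75. Its place between the patterns thus rests on the probe chosen. Krt82 was the keratin most like them. It correlated at 0.87 to 0.98 with the 6 Krtap10 genes, with a median of 0.96, and at 0.64 to 0.88 with the other 8 keratins. The medians of those 8 with the Krtap10 genes ran from 0.55 for Krt36 to 0.80 for Krt35. That it goes with them was seen in these data and carries no test. The patterns were not sharply apart. Krtap19-5 correlated at 0.80 to 0.93 with the Krtap10 genes and at 0.76 to 0.93 with the keratins. Krtap5-8 correlated at 0.74 to 0.89 with the Krtap10 genes and at 0.84 to 0.97 with the keratins.

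Single explants show the split. On sham replicate 4 the keratins averaged 0.11 relative to their own means, whereas the Krtap10 genes averaged -1.92. Krt82 measured -6.72 there, not above background, and Krtap31-1 measured -4.25, while Krt85 at 0.74 and Krtap7-1 at 5.15 were near their medians. On exposed replicate 9 the keratins averaged 2.31 and the Krtap10 genes -0.07. On exposed replicate 5 the Krtap10 genes were the higher, at 2.05 against 1.16 for the keratins. On sham replicate 5 the keratins averaged -6.21 and the Krtap10 genes -2.13. Several keratins, Krt33a, Krt34 and Krt85 among them, were not above background there, so these 2 means cannot be set against each other.

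**Figure D4:**
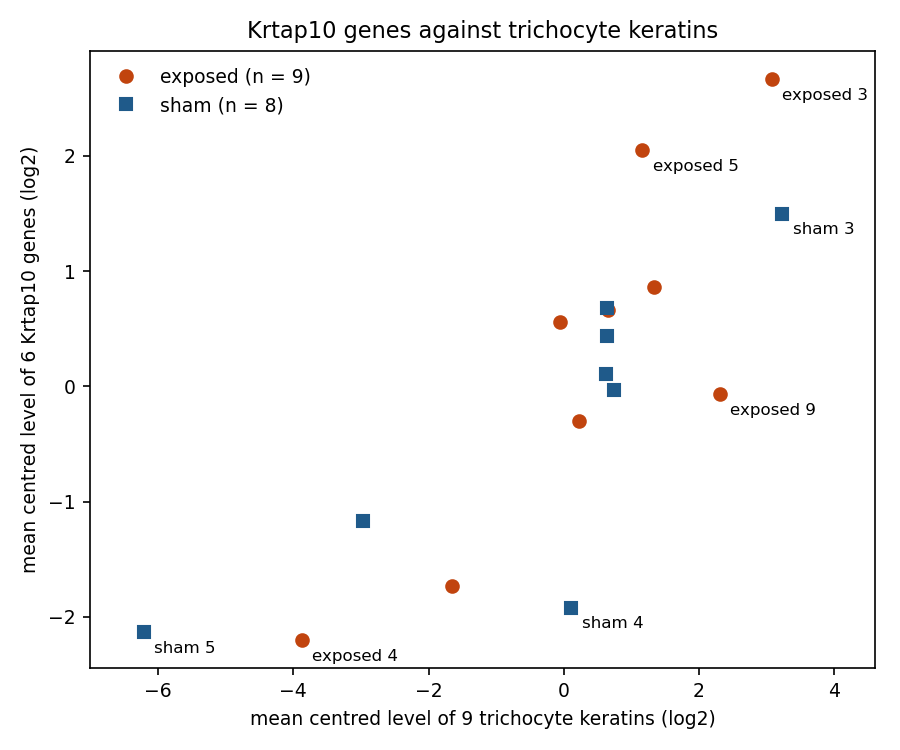
Mean level of the 6 Krtap10 genes against that of the 9 trichocyte keratins on each array, both in log2 units relative to each gene's mean, with exposed arrays as circles and sham arrays as squares. Sham replicate 4 lies at -1.92 on the vertical and 0.11 on the horizontal axis, and exposed replicate 9 at -0.07 and 2.31.

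Among all other named genes, the 8 most like the summed level over the 17 arrays were S100a3 (r = 0.99), Krt87, Gprc5d, Lrrc15, Psors1c2, Ly6g6d, Vsig8 and Krt75 (r = 0.97). S100a3 is a calcium-binding protein of the hair cuticle and Gprc5d a receptor of tissues that form hard keratin. Spearman's rho was 0.94 to 0.98 for the 8 genes, and r without the 2 arrays farthest from the median, exposed replicate 4 and sham replicate 5, was 0.92 to 0.97. The 4 genes that ran most opposite were Gas6 (r = -0.91), a ligand of TAM receptors, Tgfbi (r = -0.91), a matrix protein, Hsd17b1 (r = -0.85) and Vamp2 (r = -0.85). Their SDs were 0.16 to 0.33, far below those of the hair shaft genes. These genes were picked for their likeness, so the values are a description.

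The inner root sheath genes varied with the shaft genes, and other follicle keratins did so unevenly. Of 9 inner root sheath genes 6 were measured, and 0 passed the test in either direction at an adjusted p under 0.05. Their log2 differences, exposed minus sham, had a median of 0.68, and -0.22 without sham replicate 5, and they correlated with the summed level at 0.85 to 0.95. Krt27 stood at 1.64 and Krt25 at 1.16, both keratins of the inner root sheath, and without sham replicate 5 they stood at 0.01 and -0.19. Of the companion layer and related keratins 3 of 6 were measured, Krt75 at r = 0.97, Krt17 at 0.29 and Krt16 at 0.38, and 0 passed. Krt16 was at 0.95 and Krt17 at 0.10 on the scale of the difference. Of 3 other hair keratins outside the rule, Krt38 had no named probe, and the log2 difference was -0.05 for Krt39 and 0.95 for Krt40.

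Of 14 other hair shaft structure genes 13 were measured and 0 passed. Their correlations with the summed level ran from -0.58 to 0.99, with a median of 0.69, and Tgm1, Liph, Dsg3, Crym and Lpar6 lay at 0.11 to 0.42. Padi3, which converts arginine in shaft proteins to citrulline, correlated with the summed level at 0.96, Padi1 at 0.93, Pinlyp at 0.90 and Dsg4, a desmosome cadherin of the shaft, at 0.85, while Tgm3, a transglutaminase, was at -0.58. By group difference, Pinlyp, at 0.50, and Dsg4, at 0.69, had the smallest p of this list. Apart from the 2 named by that rule, these genes were chosen after their values were seen.

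Of 23 regulators of the hair shaft, 18 were measured, Shh and Fgf5 were dim, and Hoxc13, Dlx2 and Nfatc1 were without a named probe. None passed at an adjusted p under 0.05 (0 higher and 0 lower, limma), and 1, Wnt10a, had an unadjusted p under 0.05, at 0.0386, with a log2 difference of -0.12 (adjusted p = 0.995). Fgf18, next in this list, stood at -0.11. Over the 18 genes the correlation with the summed level ran from -0.40 for Fgf18 to 0.93, with a median of 0.60, and Wnt10a, Ovol1 and Prdm1 lay at -0.17, 0.17 and 0.19. The 4 highest are named after their values were seen. Lef1, whose protein binds the HK-1 element, correlated with the summed level at 0.93, Msx2 at 0.92, Dlx3 at 0.89 and Foxn1 at 0.83. Their log2 differences were 0.18, 0.18, 0.05 and 0.12, and their SDs over the arrays were 0.51 to 1.11. Gata3, a factor of the inner root sheath, also named after its value was seen, was at r = -0.17, and Bmpr1a, a receptor needed for shaft formation, at 0.62.

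Markers of other cells of the skin gave lower or negative correlations with the summed level over all 17 arrays, and several of these rest on exposed replicate 4 and sham replicate 5. Of 7 basal keratinocyte genes 4 were measured, at r = -0.74 to -0.49, and of 11 genes of epidermal differentiation 7, at -0.74 to 0.29. The 5 measured skeletal muscle genes lay at -0.12 to -0.08, although their own SDs were 2.97 to 4.89, and their summed level ran from -3.76 to 5.95 in exposed skin and from -3.79 to 5.36 in sham skin. The 8 sebaceous genes lay at -0.55 to -0.02, the 6 fibroblast genes at -0.41 to -0.33, the 5 melanocyte genes at -0.64 to 0.46, the 4 adipocyte genes at 0.08 to 0.58, the 5 dermal papilla genes at -0.14 to 0.48 and the 6 macrophage and lymphocyte genes at -0.48 to -0.09. Without those 2 arrays the muscle genes lay at 0.37 to 0.42, the adipocyte genes at 0.57 to 0.80 and the fibroblast genes at -0.10 to 0.15, whereas the basal keratinocyte genes stayed negative, at -0.86 to -0.62. None of these 9 lists had a gene that passed the test. On sham replicate 5 the fibroblast genes had a summed level of 1.11, the melanocyte genes 0.80 and the sebaceous genes 0.45, each the highest of all arrays, and their part in the result was not tested. For each list the 2 genes with the smallest p were, by log2 difference, Krt15 at -0.21 and Krt14 at -0.05 for basal cells, Krt2 at -0.49 and Casp14 at -0.15 for epidermal differentiation, and Mc5r at 0.22 and Dgat2l6 at 0.15 for sebaceous gland. They were Slc45a2 at 0.25 and Mitf at 0.11 for melanocytes, Myh1 at 3.19 and Tnnc2 at 1.98 for muscle, and Fabp4 at 0.52 and Pck1 at 0.83 for adipocytes. They were Lum at 0.17 and Pdgfra at 0.08 for fibroblasts, Rspo3 at -0.31 and Sostdc1 at 0.17 for dermal papilla, and Cd3e at -0.23 and Itgam at 0.19 for blood cells.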

How the data were processed

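Each array was scanned, and the authors deposited fluorescence intensity on a linear scale from Agilent Feature Extraction 10.7.3.1, protocol GE1_107_Sep09, per the file headers, with flags per spot. A deposited table of log2 values for 14853 probes, each centred on a median of 0, correlated at 0.981 to 0.999 with the scanner values and served as an alternative (its scaling is not given in the sources used here).

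From the processed signal, log2 minus the array's 75th percentile was taken over all non-control probes, after outlier spots were left out and replicate spots averaged. The group difference was fitted in limma 3.58.1 (R 4.3.3) over all kept probes, with Benjamini-Hochberg adjustment and a threshold of 0.05. Symbols came from RefSeq (GRCr8), which gave 17998 named probes. The fit was tested on simulated data. The members and lists were chosen with earlier results of these data known. Named were all members with a kept probe, the 2 genes of the smallest p per list, the 8 most like the summed level and the 4 most opposite. Protein sequences were not used here, so the classes of keratin-associated proteins follow family numbers alone. The number of arrays limits the precision. Alternatives were quantile and median scaling, normexp with an offset of 50 (run on median pixel signals, since no mean was used here), 2 filters on dim probes, slide as a block, array weights, the value table and leaving out each array.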

Additional observations from a re-analysis of the deposited data

Results flagged for a closer look

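In 64 genes and 128 groups, 8 times the highest or lowest array of a group stood apart from the others (Dixon's criterion, which chance meets in about 1 of 20 groups). Sham replicate 5 was lowest among sham arrays for Krt35, at -7.56 with the next at -2.55, for Krt25, at -4.0 with the next at 5.01, and for Krt27, at -7.74 with the next at 3.23. Exposed replicate 4 was lowest among exposed arrays for Krtap13-2, at -8.24 with the next at -3.33, and for Krtap31-1, at -7.85 with the next at -2.20. Sham replicate 3 was highest for Krtap10-9, at 4.77 with the next at 3.48. Outside the follicle, the macrophage gene Itgam was highest on sham replicate 6, at -2.96 with the next at -4.20. The signalling ligand gene Wnt10a was lowest among exposed arrays on exposed replicate 8, at 1.19 with the next at 1.35.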

How the results depend on the processing

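No paired analysis was possible because the replicate numbers only follow the order of the samples. Under the other scalings, background correction, filters, slide block, array weights and the deposited value table, the median difference of the 24 genes kept its sign. It ran from 0.35 with array weights to 0.73 with median scaling, and was 0.57 under normexp and 0.63 over the 14 genes above background on all arrays. In all of these, and in the leave-one-out fits, 0 genes passed after adjustment. At an unadjusted p under 0.05, leaving out each array gave 0 to 1 of the 24 genes. The share of all probes was counted only over all arrays, at 4.17%, and without sham replicate 5, at 5.6%. Leaving out each array moved the median from -0.05 without sham replicate 5 to 1.29 without exposed replicate 4, that of the keratins from -0.11 to 1.29 and that of the keratin-associated proteins from 0.21 to 1.27.

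Apart from the fits that left out an array, the sign turned for few genes. Krt14 was at 0.03 and Krt39 at 0.02 under quantile scaling, and Krt14 at 0.03 in the value table. Itgam was at -0.0047 and Pck1 at -0.04 under normexp, Pdgfra at -0.03 with slide as a block, and Krtap1-5 at -0.0037 and Gprc5d at -0.01 with array weights. The cause was not tested. Leaving out sham replicate 5 turned the sign of 22 of 64 genes. Their leave-one-out ranges, each with its lowest value without that array, were Krt31 (-0.08 to 0.81), Krt33a (-0.19 to 1.69), Krt33b (-0.15 to 1.29), Krt34 (-0.15 to 1.63), Krt35 (-0.14 to 1.35), Krt36 (-0.07 to 0.78), Krt81 (-0.11 to 1.29), Krt85 (-0.07 to 1.65), Krtap1-5 (-0.10 to 0.77), Krtap14 (-0.26 to 1.42), Krtap15-1 (-0.19 to 1.86), Krtap31-1 (-0.26 to 1.71), Krtap5-8 (-0.04 to 1.10), Krtap7-1 (-0.02 to 1.74), Gprc5d (-0.33 to 1.08), Krt25 (-0.19 to 1.59), Krt75 (-0.14 to 0.78), Krt87 (-0.17 to 1.36), Ly6g6d (-0.06 to 1.16), Psors1c2 (-0.16 to 0.71), S100a3 (-0.07 to 1.15), Vsig8 (-0.04 to 1.11). Krt39, at -0.05 over all arrays, stayed below 0 without sham replicate 5, at -0.43. Its sign turned in 8 other leave-one-out fits, up to 0.39 without sham replicate 3. Where a probe was near background on an array, that limits the fits that include the array.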
